A study of Mus musculus with 8 samples.

Results

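The genes described here encode 8 proteins of the myelin membrane and its surface. They are *Mag*, *Mog*, *Cadm4*, *Omg*, *Tspan2*, *Cd9*, *Opalin* and *Ermn*. They were taken by symbol from the 23427 genes of the deposited table, with earlier results of these data known. All 8 were found in the table, and all 8 passed the filter on low values. The cells were primary OPCs, the progenitors that mature into myelin-forming OLs, of wild-type C57BL/6J mice. The study's methods state that OPCs came from the pooled cortices of 3 pups at postnatal day 7 and were captured on dishes coated with an antibody against PDGFRα. On Day 0 the cells had not been switched to the differentiation medium. On Day 1, Day 2 and Day 3 they had spent that time without PDGF-AA and with the thyroid hormone T3 at 40 ng/mL. The labels describe the growth medium as DMEM with serum, which differs from the methods. The mRNA was sequenced in 2 replicates a day, for 8 libraries in all. The study's methods call the 2 replicates independent cultures, while the labels do not say whether they came from separate cell isolations. The p-values measure the spread between these libraries.

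Myelin is the sheath of membrane that OLs wrap around axons. Most of its bulk is compact membrane, while the proteins encoded here sit mainly on the outer or axon-facing surface, in the less compact parts, or at the cytoskeleton beneath them. MAG and CADM4 are adhesion proteins of the immunoglobulin superfamily that face the axon, and MOG is an immunoglobulin-like protein of the outermost surface. OMgp, encoded by *Omg*, is held in the membrane by a GPI anchor and, like MAG, binds Nogo receptors on neurons. CD9 and TSPAN2 are tetraspanins, which span the membrane 4 times and gather partner proteins around them. OPALIN is a small glycosylated membrane protein found in OLs, and ermin, encoded by *Ermn*, binds actin and appears late in OL maturation. A change of mRNA in these bulk cultures cannot tell more cells of a kind from more RNA per cell.

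The unit is FPKM, the fragments of a gene divided by its transcript length and by the mapped fragments of the library, so that levels of different genes can be set side by side. The steps between low values gave an estimated depth of 950000 to 1530000 fragments per library. A value resting on fewer than 3 fragments was taken as too low to measure. The OL markers *Mbp*, *Mobp*, *Cnp* and *Tppp* were all higher on Day 3 than on Day 0 (4 of 4 called), and the 6 OPC markers were all lower. The summed FPKM of the 8 astrocyte markers was 121, 173, 133 and 150 in replicate 1 from Day 0 to Day 3. In replicate 2 the sum was 360, 527, 644 and 956, and so rose on each day. Of these markers 5 of 8 were called higher in replicate 2, where *Gfap* was at 603 FPKM at Day 3 against 45.5 in replicate 1, and none of the 8 was at 0 throughout. Taken over both replicates, their log2 changes between Day 0 and Day 3 ran from -0.45 to 1.87 (median 0.33), and none was called. Of the 6 microglia markers 5 stayed under 1 FPKM in every library, as did all 4 endothelial markers and 3 of the 4 mural ones. The Schwann cell markers *Prx* and *Pmp2* summed to at most 4.03 FPKM. *Pmp2* was called higher at Day 3, from 0 in both Day 0 libraries to 4.03 and 0.77 FPKM. The study also lists *Pmp2* among the genes lowered by knockdown of the gene *Sbp2l* in OPC cultures. Of the neuron markers 3 of 6 stayed under 1 FPKM, and *Tubb3*, which is also made outside neurons, was the only one called (higher, from 60.2 and 20.8 to 231 and 113 FPKM).

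The genes lie on 7 chromosomes (coordinates of GRCm38, GENCODE M21, the build that the labels name as mm10). *Mag* (chromosome 7, 30899176 to 30914873, minus strand) and *Cadm4* (chromosome 7, 24482023 to 24504539, plus strand) share a chromosome. *Mog* lies at 37010743 to 37023398 of chromosome 17, *Opalin* at 41061710 to 41077113 of chromosome 19, *Ermn* at 58045113 to 58052864 of chromosome 2 and *Cd9* at 125460266 to 125494791 of chromosome 6, all on the minus strand. *Tspan2* lies at 102734529 to 102801513 of chromosome 3 on the plus strand. *Omg* (chromosome 11, 79500982 to 79504084, minus strand) is nested inside *Nf1*, on the opposite strand, and shares no exon base with it. *Galnt5* runs opposite to *Ermn* and shares 237 exon bases with it, but *Galnt5* was listed at 0 in every library. *Cd9* shares 218 exon bases with the opposite transcript *Gm26728*, and *Tspan2* shares 88 with *Tspan2os*, neither of which is in the table. The setting for strand in the authors' counting is not given in the sources used here, so the values of *Cd9* and *Tspan2* carry that uncertainty.

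The bases before the annotated start are printed for 4 genes, the strongest risers and the most variable gene (*Opalin* is the variable one). No start was measured in these data. *Mag* has 3 annotated start windows, and the one nearest the 5′ end of the gene is shown. Each line gives the 150 bases just before the RefSeq start (GRCm38.p6), 5′ to 3′ on the strand of the gene, with the letters ACAAAG or their reverse complement CTTTGT in capitals. These letters are the core that SOX proteins, among them the OL factor SOX10, are known to bind.
Mag, chr7:30914864-30915013, minus strand: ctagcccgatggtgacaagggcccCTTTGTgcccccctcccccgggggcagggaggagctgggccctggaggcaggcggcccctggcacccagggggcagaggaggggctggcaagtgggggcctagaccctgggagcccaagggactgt
Mog, chr17:37023399-37023548, minus strand: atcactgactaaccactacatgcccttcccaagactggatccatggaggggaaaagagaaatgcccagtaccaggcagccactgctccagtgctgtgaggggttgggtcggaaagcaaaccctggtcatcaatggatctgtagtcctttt
Ermn, chr2:58052865-58053014, minus strand: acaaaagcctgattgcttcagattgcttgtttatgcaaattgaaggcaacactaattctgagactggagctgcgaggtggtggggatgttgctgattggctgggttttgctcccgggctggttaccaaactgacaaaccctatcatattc
Opalin, chr19:41077114-41077263, minus strand: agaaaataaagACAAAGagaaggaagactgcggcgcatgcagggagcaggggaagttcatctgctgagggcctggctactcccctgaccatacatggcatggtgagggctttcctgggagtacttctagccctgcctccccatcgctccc

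The letters begin 126 bases before the start of *Mag* and 139 bases before that of *Opalin*, and the printed stretches of *Mog* and *Ermn* do not hold them. RefSeq start windows of 300 bases (250 before the start and 50 from it on) were found for 7 of the 8 genes, not for *Omg*. On both strands 4 of their 10 windows held ACAAAG, in *Mag*, *Opalin* and *Tspan2*, against 18.7% of the 32851 windows of all genes. The E-box letters CAGCTG, which read the same on both strands, were in the windows of *Cd9* and *Opalin*, against 16.3% of all windows, and TATAAA was in none of the 10 (13.6% of all). Genes with several starts have overlapping windows, and a match of letters is a description and not a site.

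From Day 0 to Day 3, 6 of the 8 genes rose, 1 fell and 1 was not called, by limma on log2(FPKM + 1) with an adjusted p under 0.05. Over all 12208 genes tested, 12% were called higher and 26.3% lower. The median log2 change of the 8 was 2.81, beside -0.31 for all genes tested. *Mag*, *Mog*, *Ermn*, *Tspan2*, *Opalin* and *Cadm4* were higher, *Omg* was lower, and *Cd9* did not pass. The values of Day 0 and Day 3 did not overlap for any of the 8, nor for 71.4% of all genes tested (22.8% higher and 48.6% lower). With median ratio scaling the median of all genes moved to -0.04, and the share of called genes that were higher went from 31.3% to 51.1%. Changes after subtraction of this median are therefore given below for the genes that moved least. In replicate 1 alone, where the astrocyte markers were low, 6 genes were higher and 2 lower on Day 3, as in replicate 2 alone (values with no test).

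**Figure D1:**
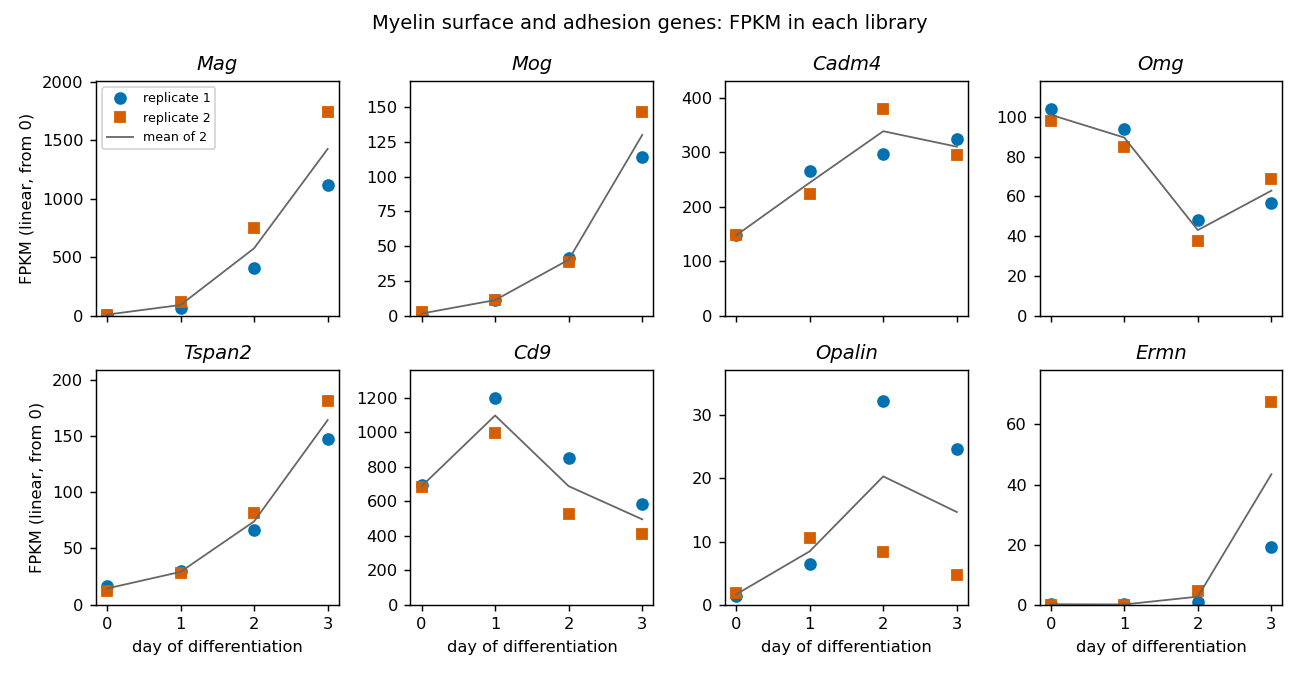
FPKM of the 8 genes (vertical axes linear and starting at 0, with a scale of its own for each gene) against the day of differentiation, a circle for replicate 1, a square for replicate 2 and a line through the mean of the 2. *Mag*, *Mog* and *Tspan2* climb on each day, *Cd9* is highest on Day 1, *Omg* is lowest on Day 2, and the replicates of *Opalin* part on Day 2 and Day 3.

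*Mag*, whose protein holds the inner myelin layer to the axon, was at 8.33 and 10.4 FPKM at Day 0 (replicate 1 and replicate 2), 62.5 and 121 at Day 1, 404 and 748 at Day 2, and 1114 and 1736 at Day 3. Each day lay above the day before without overlap, and the ratio of the means of Day 3 and Day 0 was 152. The log2 change over the 3 days was 7.08 (SE 0.38, limma adjusted p = 4.78e-05), and only 2 of the 12208 genes tested had a larger rise. By Day 1 *Mag* had made 43.7% of this log2 change and by Day 2 81.1%. It rose from Day 0 to Day 1 by 3.09 (SE 0.38, limma adjusted p = 0.00162) and from Day 1 to Day 2 by 2.65 (SE 0.38, limma adjusted p = 0.0141). The last step was 1.34 (limma adjusted p = 0.160), and with the replicate number as a block its adjusted p was 0.0217.

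*Mog*, whose protein is the best-known autoantigen of the myelin surface, was at 0.76 and 2.39 FPKM at Day 0, an estimated 2 and 5 fragments. The value of replicate 1 is thus under the 3 fragments taken as the least to measure, and changes from Day 0 carry that limit. With a pseudocount of 0.1 the log2 change of the first step was 2.95. It reached 11.5 and 11.0 FPKM at Day 1, 41.8 and 38.7 at Day 2, and 114 and 146 at Day 3. No library of a later day fell to the level of an earlier one. The log2 change was 5.73 over the 3 days (SE 0.29, limma adjusted p = 4.78e-05), the fifth largest rise of all genes tested. The steps were 2.32 (SE 0.29, limma adjusted p = 0.00176), 1.75 (SE 0.29, adjusted p = 0.0206) and 1.66 (SE 0.29, adjusted p = 0.0709, or 0.0344 with the replicate block). *Mag* stood above *Mog* in every library, by a ratio of 4.36 to 19.3 in FPKM, and on Day 3 by 9.78 and 11.9. The lowest ratio is that of Day 0 replicate 2, where *Mog* rests on 5 fragments.

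*Cadm4*, which encodes the OL partner of the axonal adhesion proteins CADM2 and CADM3, started high. It was at 148 and 147 FPKM at Day 0, 266 and 223 at Day 1, 298 and 380 at Day 2, and 325 and 295 at Day 3. The first step separated the days, and Day 2 and Day 3 overlapped. The log2 change between Day 0 and Day 3 was 1.07 (SE 0.16, limma adjusted p = 0.00130), or 1.38 after subtraction of the all-gene median. By Day 1 the gene had made 67.4% of it, with a log2 change of 0.72 (SE 0.16, limma adjusted p = 0.0209). That first call was lost without either Day 0 library (adjusted p = 0.125 and 0.131 from limma) or without Day 1 replicate 1 (0.0926) and with eBayes without a trend (0.0712), while the log2 change stayed between 0.59 and 0.84. The later steps were 0.46 (adjusted p = 0.137) and -0.12 (adjusted p = 0.801), both from limma, and the last of these turned to 0.16 under quantile normalization.

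*Omg* was the gene of the 8 that fell. It was at 104 and 98.1 FPKM at Day 0, 94.1 and 85.0 at Day 1, 48.3 and 37.8 at Day 2, and 56.8 and 68.9 at Day 3. Day 2 was the lowest day, and both Day 3 libraries lay between Day 2 and Day 1. The middle step was a log2 change of -1.05 (SE 0.16, limma adjusted p = 0.0174), while the first was -0.17 (adjusted p = 0.559) and the last 0.54 (adjusted p = 0.179). Between Day 0 and Day 3 the change was -0.68 (SE 0.16, limma adjusted p = 0.0121), or -0.37 after subtraction of the all-gene median. This call was lost with median ratio scaling (-0.37, limma adjusted p = 0.113), without either Day 0 library and without Day 3 replicate 1 (adjusted p from 0.0552 to 0.0768). *Nf1*, the gene around it, ran from 24.7 to 38.3 FPKM over the libraries, with a log2 change of 0.07 (limma adjusted p = 0.775) from Day 0 to Day 3. *Evi2a* and *Evi2b*, which lie in the same intron of *Nf1*, stayed under 1 FPKM in every library.

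The 2 tetraspanin genes took different courses. *Tspan2* was at 16.8 and 12.05 FPKM at Day 0, 29.8 and 28.7 at Day 1, 66.2 and 81.8 at Day 2, and 147 and 181 at Day 3, with no overlap between days. The ratio of the means was 2.02, 2.53 and 2.22 in the 3 steps. Its log2 change was 3.43 between Day 0 and Day 3 (SE 0.19, limma adjusted p = 4.78e-05), 0.99 in the first step (adjusted p = 0.0136), 1.30 in the middle step (adjusted p = 0.0157) and 1.14 in the last (adjusted p = 0.0682, or 0.0415 with the replicate block).

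*Cd9*, a tetraspanin that OPCs already carry, was the highest of the 8 genes on Day 0 and Day 1. It was at 692 and 682 FPKM at Day 0, 1198 and 998 at Day 1, 849 and 526 at Day 2, and 582 and 409 at Day 3. Day 1 was above both its neighbours without overlap, and Day 2 overlapped Day 3. The first step, a log2 change of 0.67 (SE 0.25, limma adjusted p = 0.131), passed with the replicate block (adjusted p = 0.0387) and under quantile normalization (1.14, adjusted p = 0.0133). The middle step was -0.71 (SE 0.25, limma adjusted p = 0.153, 0.0538 with the block). Between Day 0 and Day 3 the change was -0.49, with a 95% interval of -1.07 to 0.09 (limma adjusted p = 0.157, 0.0548 with the block). It was -0.18 after subtraction of the all-gene median and turned to 0.14 under quantile normalization. The ratio of *Cd9* to *Tspan2* in FPKM was 41.1 and 56.6 at Day 0 and 3.96 and 2.26 at Day 3.

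*Opalin* was at 1.46 and 1.83 FPKM at Day 0, 6.40 and 10.5 at Day 1, 32.2 and 8.42 at Day 2, and 24.7 and 4.68 at Day 3. The replicates agreed in direction in the first step and parted in the middle one, in which replicate 1 was 5.03 times as high on Day 2 as on Day 1 and replicate 2 was 0.80 times as high. On Day 3 replicate 1 stood 5.27 times above replicate 2, from an estimated 75 and 12 fragments. The log2 change between Day 0 and Day 3 was 2.19 (SE 0.75, limma adjusted p = 0.0480), just under the threshold. Without Day 3 replicate 1 it was 1.11 (limma adjusted p = 0.257) and without Day 3 replicate 2 it was 3.28 (adjusted p = 0.0140). Of the 17 alternatives 8 lost the call. No single step passed, and the first was the largest (1.81, SE 0.75, limma adjusted p = 0.166).

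*Ermn* came last. On Day 0 it was at 0.37 and 0 FPKM and on Day 1 at 0.23 and 0, an estimated 2 fragments and 1 fragment in all, too few for the level of either day to be given with any precision. On Day 2 it was at 0.93 and 4.48 FPKM (about 4 and 22 fragments), and on Day 3 at 19.3 and 67.6 (about 76 and 233 fragments). In fragments per depth, with both libraries of a day summed, the ratio of Day 3 to Day 0 was 208, with an exact 95% interval of 57.2 to 1727 that covers counting error only and is wide because Day 0 rests on 2 fragments. The log2 change between Day 0 and Day 3 was 4.99 (SE 0.65, limma adjusted p = 6.99e-04) with the pseudocount of 1, and 7.38 with one of 0.1. The last step, a log2 change of 3.52 (SE 0.65, limma adjusted p = 0.0739, 0.0377 with the replicate block), was the seventh largest rise of all genes in that step. *Ermn* had made 29.5% of its log2 change by Day 2, against 66.8% for *Tspan2*, 71.1% for *Mog* and 81.1% for *Mag*. The share of *Ermn* was 14.5% in replicate 1 and 44.6% in replicate 2, and its mean was 45.0% with a pseudocount of 0.1. The difference between the shares of the genes was not tested.

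**Figure D2:**
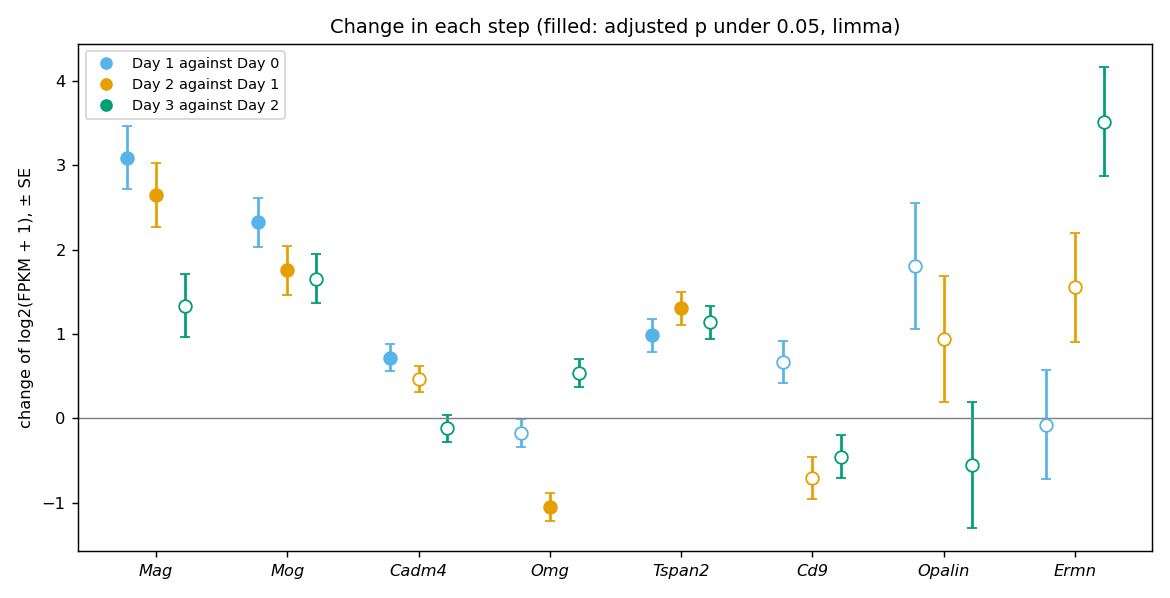
Change of log2(FPKM + 1) in each of the 3 steps between neighbouring days (vertical axis), with the SE from limma as bars, for the 8 genes. Filled circles passed an adjusted p under 0.05, and no circle of the last step is filled, although *Ermn* at 3.52 is the highest point of all.

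By step, 4 of the 8 genes rose from Day 0 to Day 1 (*Mag*, *Mog*, *Tspan2* and *Cadm4*) and none fell (nor at an unadjusted p under 0.05, at which 16.1% of all genes did), while 5.04% of all genes were called higher and 7.56% lower (615 and 923 genes, or 836 and 831 under quantile normalization). The median log2 change of the 8 was 0.85, beside -0.07 for all genes. From Day 1 to Day 2, 3 rose (*Mag*, *Mog* and *Tspan2*) and *Omg* fell, while 2.16% of all genes were higher and 1.73% lower. Of all genes called in that step 55.6% were higher, a share that went to 78.3% with median ratio scaling. The median of the 8 was 1.12, beside -0.19 for all genes. From Day 2 to Day 3 limma called none of the 8, while 0.246% of all genes were higher and 0.0491% lower, and 5 of the 8 had an unadjusted p under 0.05, against 14.5% of all genes. With the replicate block 4 of the 8 passed in that step (*Mag*, *Mog*, *Ermn* and *Tspan2*, all higher), while 0.975% of all genes were higher and 0.36% lower. The calls of the first 2 steps rest on few libraries. The first step kept 2 of its 4 calls without Day 0 replicate 2 or without Day 1 replicate 1. The middle step kept 0 of 4 without Day 1 replicate 1 or without Day 2 replicate 2, 1 without Day 1 replicate 2, and 0 where only the days compared were fitted. The last step gained 2 calls, *Ermn* and *Tspan2*, without Day 3 replicate 1, where 78 of all genes were called higher and 145 lower (30 and 6 with it).

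The middle step was also set against the first for each gene, and limma called no difference between them for any of the 8, while 0.688% of all genes had a larger and 0.36% a smaller middle step. Of the 8, 2 had an unadjusted p under 0.05, near the share of 15.7% over all genes. They were *Cd9*, whose log2 change was 0.67 in the first and -0.71 in the middle step (difference -1.38, limma adjusted p = 0.170, 0.0553 with the block), and *Omg* (difference -0.88, limma adjusted p = 0.179, 0.150 with the block).

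The order of the levels within a day changed accordingly. On Day 0 the order was *Cd9* (mean 687 FPKM), *Cadm4* (148), *Omg* (101), *Tspan2* (14.4), *Mag* (9.37), *Opalin* (1.64), *Mog* (1.58) and *Ermn*, and of these neighbours only *Opalin* and *Mog* overlapped. On Day 1 *Mag* (91.7) and *Omg* (89.6) overlapped behind *Cd9* (1098) and *Cadm4* (244). On Day 2 *Cd9* (688) overlapped *Mag* (576), and *Omg* (43.1) overlapped *Mog* (40.3). On Day 3 *Mag* (1425) stood clear of *Cd9* (496), which was followed by *Cadm4* (310), *Tspan2* (164) and *Mog* (130), each apart from the next. *Omg* (62.9), *Ermn* (43.4) and *Opalin* (14.7) came last, and each overlapped its neighbour there.

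The summed FPKM of the 8 genes was 972 and 954 at Day 0 and 2383 and 2908 at Day 3. *Cd9* made up 71.3% and 71.5% of the sum on Day 0 and 24.4% and 14.1% on Day 3. *Mag* went from 0.86% and 1.09% to 46.7% and 59.7%. *Cadm4* stayed between 10.2% and 20.8% in all 8 libraries.

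**Figure D3:**
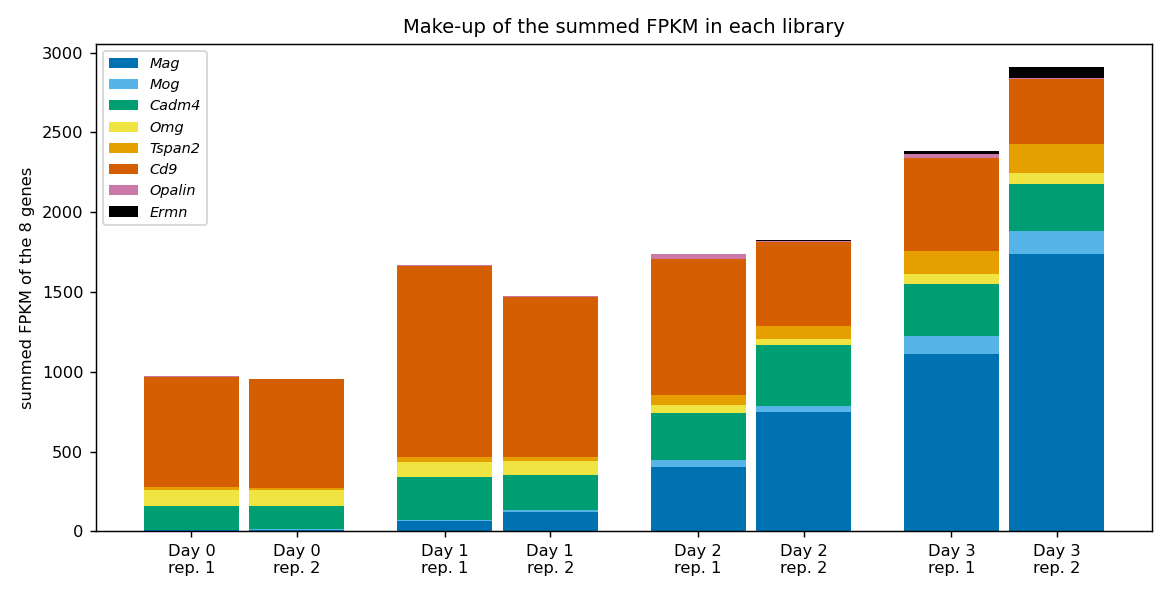
Summed FPKM of the 8 genes (vertical axis, linear, from 0) in each of the 8 libraries, with a colour for each gene. The *Cd9* part is the largest on Day 0 and Day 1 and the *Mag* part on Day 3, where the sums are 2383 and 2908.

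The replicates differed for a few of the genes. *Mag* was higher in replicate 2 on all 4 days, by a log2 difference of 0.69 (SE 0.12, limma adjusted p = 0.0425 with the day as a factor), and was the only one of the 8 called. Of all genes 0.68% were called higher in replicate 2 and 0.369% lower. The call was lost under 12 of the 15 alternatives, in each fit that left out a library among them. *Cd9* was lower in replicate 2 on all 4 days (-0.37, limma adjusted p = 0.291). *Opalin* was higher in replicate 2 at Day 0 and Day 1 and lower on Day 2 and Day 3, while *Ermn* was higher in replicate 2 at Day 2 and Day 3. Replicate 2 also held the higher astrocyte marker sums given above, and their part in these differences was not tested. Of the 6 OPC markers only *Pdgfra* was called, lower in replicate 2 (log2 difference -1.81, limma adjusted p = 0.0461). The other 5 had log2 differences from -0.42 to -0.19 and were not called. The summed FPKM of the 6 was 1053 and 1072 at Day 0 and 224 and 125 at Day 3 (replicate 1 and replicate 2).

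**Figure D4:**
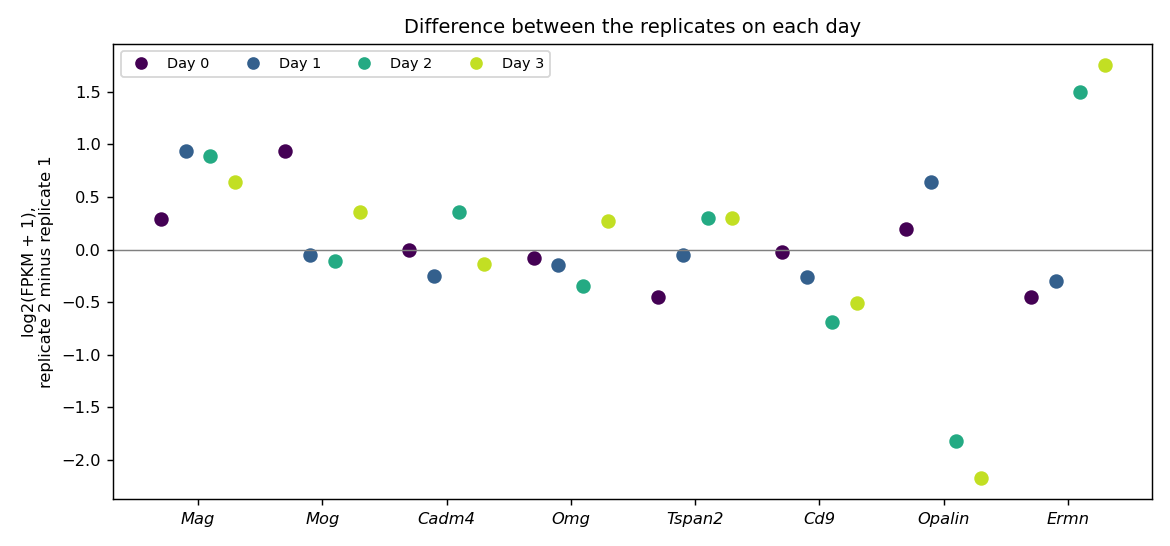
Difference of log2(FPKM + 1) between replicate 2 and replicate 1 (vertical axis) on each of the 4 days, a point per day, for the 8 genes. The points of *Mag* are all above 0 and those of *Cd9* all below, and *Opalin* has points on both sides, from 0.64 at Day 1 to -2.18 at Day 3.

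The courses of the 8 genes over the libraries were compared by Pearson's r of log2(FPKM + 1), as a description over 8 libraries that share the days. *Mag*, *Mog* and *Tspan2* were alike (r from 0.97 to 0.98), *Ermn* was nearest to *Tspan2* (0.89), and *Omg* was opposite to *Mag* (-0.78) and *Cadm4* (-0.84). Among the other 6474 tested genes with a mean of at least 10 FPKM, the likest to *Mag* were *Tpd52* and *2310035C23Rik* (r = 0.999 and 0.998), to *Mog* *Grik2* and *Degs1* (0.99), and to *Tspan2* *Gng12* (0.996) and *Shroom2* (0.99). The likest to *Ermn* were *Iars* and *Coro2b* (0.99), though *Ermn* rested on at most 2 fragments in each Day 0 and Day 1 library. *Iars* went only from a mean of 42.7 FPKM at Day 0 to 69.3 at Day 3, as r does not measure the size of a change. *Coro2b*, which encodes an actin-binding coronin, went from a mean of 1.90 FPKM at Day 0 to 62.2 at Day 3. For *Omg* they were *Nsf* (0.98) and *Cdkn1b* (0.97), for *Cadm4* *Mapk8ip3* and *Rap2a* (0.99 and 0.98), for *Cd9* *1700020I14Rik* and *Kctd4* (0.99 and 0.98), and for *Opalin* *Dolk* and *Ccdc50* (0.96 and 0.95).

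Of 13 other membrane and surface genes of myelinating OLs 12 were tested, of which 7 rose and 1 fell between Day 0 and Day 3. Over all genes tested, 12% were called higher and 26.3% lower between these days. The median log2 change of the 12 was 2.35. The most abundant were *Cldn11*, a tight junction protein of the myelin sheath (2.24, limma adjusted p = 1.51e-04), and *Nfasc*, which encodes an adhesion protein of the paranode (4.03, adjusted p = 4.78e-05). *Tmem88b* (3.09), *Gpr37* (3.83), *Tmem125* (4.67), *Mal* (5.03) and *Pllp* (2.47) also rose. *Cntn1*, an adhesion protein of axons and OPCs, fell (-1.03, limma adjusted p = 0.0399). *Mal*, a proteolipid of myelin, was at 0 and 0.31 FPKM at Day 0, 3.55 and 1.73 at Day 2, and 20.1 and 65.4 at Day 3, a late course with values near those of *Ermn*.

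The other *Cadm* genes, which encode related adhesion proteins, all rose from Day 0 to Day 3 (3 of 3, against 12% of all genes tested). *Cadm1* went from 45.4 and 47.0 FPKM at Day 0 to 99.0 and 80.2 at Day 3 (0.93, limma adjusted p = 0.00190). *Cadm2* and *Cadm3* had log2 changes of 1.15 and 1.18. All 3 rose in the first step, against 5.04% of all genes tested. Their means were lower on Day 3 than on Day 2 (median log2 change -0.67 in the last step). *Cadm4* stayed the highest of the family in every library.

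Of 29 other tetraspanin genes 20 were tested, and 9 rose and 3 fell between Day 0 and Day 3. Over all genes tested, 12% rose and 26.3% fell. The median log2 change of the 20 was 0.35. *Cd81*, a close relative of *Cd9*, went from 224 and 332 FPKM to 1055 and 990 (1.90, limma adjusted p = 2.22e-04). *Cd63*, a tetraspanin of late endosomes, went from 136 and 162 to 411 and 343 (1.33, adjusted p = 3.52e-04) and also rose in the last step (1.08, adjusted p = 0.0369). *Tspan9* (2.79), *Tspan15* (2.15), *Cd82* (2.14), *Tspan4* (1.60), *Tspan17* (1.41), *Rom1* (1.26) and *Tspan14* (0.62) rose as well. *Tspan13* (-2.19), *Tspan6* (-1.09) and *Tspan7* (-0.93) fell. On Day 3 *Cd81* stood above *Cd9* in both libraries, and on Day 0 below it. Of the partner proteins that CD9 and CD81 bind, *Igsf8* went from 46.4 and 43.8 FPKM at Day 0 to 11.0 and 12.5 at Day 2 and back to 33.7 and 53.8 at Day 3. It fell in the middle step (-1.49, limma adjusted p = 0.0143) and rose in the last (1.78, adjusted p = 0.0354). *Ptgfrn* was at 1.92 and 5.07 FPKM at Day 0 and at 0.32 and 1.08 at Day 3 (-1.35, limma adjusted p = 0.0545).

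Of 8 genes for receptors of MAG and OMgp, 7 were in the table and 3 were tested. Of these 3, 2 fell between Day 0 and Day 3, as did 26.3% of all genes tested. The Nogo receptor gene *Rtn4r* was at most at 1.11 FPKM, and *Rtn4rl1*, *Rtn4rl2* and *Ngfr* did not pass the filter. *Lrp1*, a large endocytic receptor, went from 54.3 and 57.2 FPKM to 16.2 and 11.8 (-1.94, limma adjusted p = 0.00219). *Lingo1*, a co-receptor known to hold back OL differentiation, went from 9.30 and 7.91 to 2.23 and 0.32 (-2.22, adjusted p = 0.00392). *Tnfrsf19* was at 21.1 and 16.6 FPKM at Day 0 and at 15.7 and 7.50 at Day 3 (-0.73, adjusted p = 0.204).

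Of 4 enzyme genes for the gangliosides that MAG binds, 1 rose and 3 fell between Day 0 and Day 3. Over all genes tested, 12% rose and 26.3% fell. *St3gal3*, a sialyltransferase, rose (1.04, limma adjusted p = 0.0112). *B4galnt1*, which starts the complex gangliosides (-1.19), *St3gal2* (-1.30) and *St8sia1*, the GD3 synthase (-2.41, limma adjusted p = 0.00864), fell. Ermin carries an actin-binding end like that of ezrin, radixin and moesin. Their genes were therefore listed, with that of the related merlin. Of these 4 genes *Msn* fell (-1.51, limma adjusted p = 5.05e-04). *Rdx* was at 86.1 and 79.0 FPKM at Day 0 and at 94.6 and 140 at Day 3 (0.48, adjusted p = 0.0835), and *Ezr* and *Nf2* were not called.

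**Figure D5:**
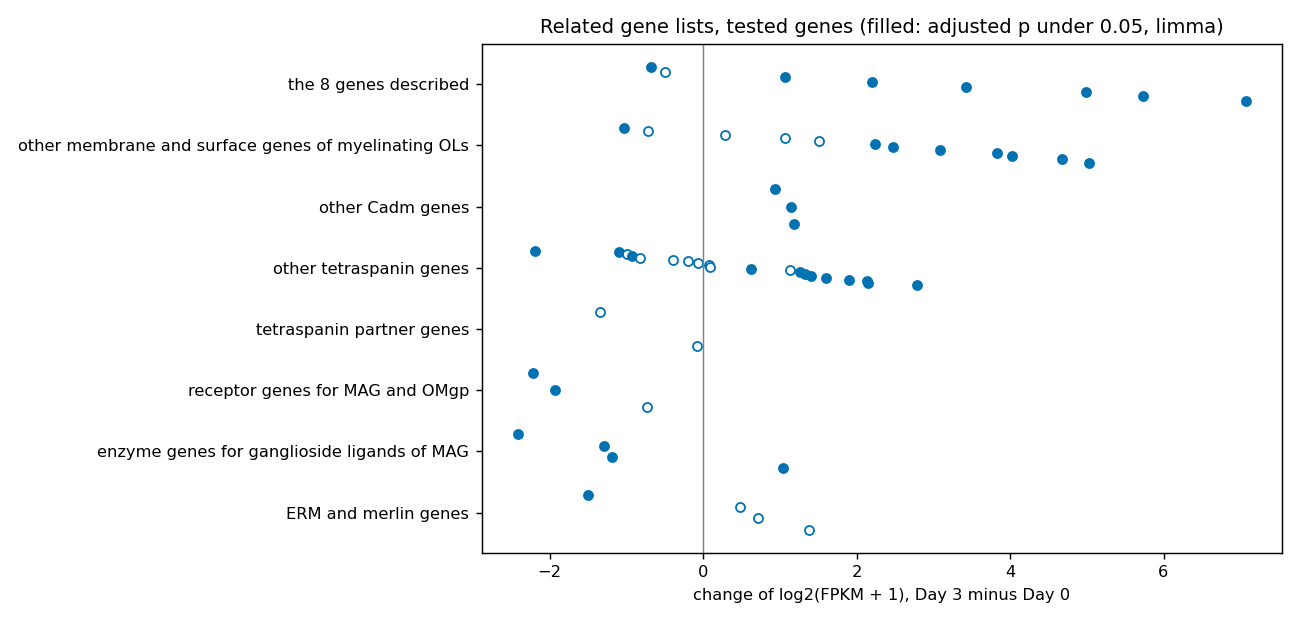
Change of log2(FPKM + 1) from Day 0 to Day 3 (horizontal axis) for each tested gene of the lists named on the vertical axis, filled where the adjusted p was under 0.05 (limma). The 8 genes described run from -0.68 to 7.08, the other *Cadm* genes from 0.93 to 1.18, and the other tetraspanin genes from -2.19 to 2.79.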

How the data were processed

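The mRNA of 8 libraries (Day 0 to Day 3, 2 a day) had been read by the authors as 75-nt paired ends from stranded libraries and processed with OmicSoft ArrayStudio. The authors deposited FPKM, with no counts. The labels name the build mm10. The aligner, gene model and strand setting are not given in the sources used here. The paper's methods name DESeq2, which needs counts and was not used.

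The 12208 genes that reached 1 FPKM in 2 or more libraries were tested on log2(FPKM + 1), on which changes of low genes are understated, in R 4.3.3 with limma 3.58.1 (day as a factor of 4 levels, all 8 libraries, eBayes with a trend, Benjamini-Hochberg adjustment over the 12208 genes). An adjusted p under 0.05 was called. The replicate test added the replicate number to the day. Every day has a library 1 and a library 2 in the labels. Their deviations correlated across genes, which are not independent replicates, with r from 0.16 to 0.29 in all 6 pairs of days. The main fits nevertheless leave the replicate number out, so their p-values do not use this pairing. The fit with the replicate number as a block is an alternative, given beside results whose call it changes. Depth was read from the spacing of low FPKM values of coding genes with 1 transcript, and fragments from the longest transcript of a gene. Positions came from GENCODE M21 and start windows from RefSeq. Tables and figures were made in Python 3.11.15.

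The genes, the lists and the tests were chosen with earlier results of these data known. All 8 genes are named. Of each list the counts are given with the 2 most abundant genes and those needed to describe the calls, and the likest genes are the 2 of highest r. The replicate 1 values were added after seeing the data. Some genes of the planned lists are not reported here, and the counts leave them out.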

Additional observations from a re-analysis of the deposited data

How the results depend on the processing

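Over the 48 changes and replicate differences of the 8 genes (8 genes in 6 comparisons), 800 alternative values were computed. Of these 714 kept their direction and their side of the threshold, 55 lost a call, 9 gained one and 22 changed sign, all 22 of them in results that were not called. Of the 16 called results 7 kept their call under every alternative run. The replicate block called 5 genes in the first step (4 without it), 4 in the last (0 without it), and 4 and 7 in the middle step and from Day 0 to Day 3 as without it. Over all genes it gave 803 calls in the middle step against 475, 163 in the last against 36, and 369 for the middle against the first step against 128.

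Fitting only the days compared, or eBayes without a trend, left 0 of the 4 genes of the middle step called. For the replicate difference of *Mag* the count of 1 went to 0 with a pseudocount of 0.1, no filter, quantile normalization and eBayes without a trend. Leaving out 1 library gave 2 to 4 called genes in the first step, 0 to 4 in the middle, 0 to 2 in the last and 0 for the replicates. Over all genes it gave 583 to 1585 calls in the first step, 11 to 445 in the middle, 0 to 223 in the last, 2769 to 4548 between Day 0 and Day 3, 0 to 116 for the middle against the first step and 40 to 84 between the replicates.

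Over all genes a pseudocount of 0.1 gave 8 calls in the last step, 45 for the middle against the first step and 72 between the replicates. No filter gave 247 in the middle step, 0 in the last, 16 and 59. Without a trend these were 121, 0, 51 and 77, and with only the days compared 0 in the middle and 0 in the last step. Quantile normalization gave 203 for the middle against the first step.

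Signs changed under quantile normalization for *Cadm4* in the last step (0.16), *Cd9* from Day 0 to Day 3 (0.14) and the replicate difference of *Cadm4* (0.0059, and 0.044 with median ratio scaling), and with a pseudocount of 0.1 for the replicate difference of *Ermn* (-0.0021). Leaving out 1 library took *Ermn* in the first step from -0.30 to 0.15, and in the last step *Opalin* from -1.64 to 0.54 and *Cadm4* from -0.29 to 0.059. The middle minus the first step ran from -1.39 to 0.49 for *Mag* and from -1.78 to 0.040 for *Opalin*. The replicate difference ran from -0.19 to 0.015 for *Omg*, -0.13 to 0.071 for *Cadm4* and -0.069 to 0.18 for *Tspan2*. The cause of these changes was not tested. At 950000 to 1530000 fragments a library, *Ermn* before Day 2 rests on at most 2 fragments a library. A library left alone on its day was assumed to vary like the other days.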
